A study of Mus musculus with 13 samples.

Results

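Transcripts of 10 cation channel genes of the transient receptor potential (TRP) family, 3 of them mucolipins, were examined in microglia of β-amyloid-bearing mice with and without Trem2. They are 10 of the 52636 genes listed for each mouse, found by their Ensembl identifiers, and all 10 passed the filter on low counts that 17086 genes passed. Trpm6 and Trpc4 entered the group because they are among the most reduced genes of the genotype comparison itself, and Trpm2, Trpm4, Trpm7, Trpv2, Trpv4, Mcoln1, Mcoln2 and Mcoln3 entered as relatives detected in the same cells. Genotype values of the 10 genes are therefore given as a description, with no p-value, and where a fit's cutoffs called a gene or not, that too only describes how it was chosen.

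The mice were PS2APP;Trem2wt, 5 females and 2 males, and PS2APP;Trem2ko, 5 females and 1 male, all 14 to 15 months of age, and the sample labels spell the groups PS2APP and PS2APP;Trem2KO. Both groups carried the PS2APP transgenes, which encode human presenilin 2 and amyloid precursor protein with familial Alzheimer's disease mutations. The knockouts were homozygous for the constitutive null allele Trem2tm1(KOMP)Vlcg, and breeders were heterozygous for it. The study's methods state that this breeding was meant to let littermates be compared as far as possible. Which of the mice compared here were littermates is not given in the sources used here. No mice without the transgenes were analysed here, so all values refer to brains with β-amyloid plaques. Cortex and hippocampus were dissociated on ice, and CD11b+ CD45+ cells negative for Ccr2 and Ly6g were sorted, a gate that holds mostly microglia and also perivascular macrophages. The study's methods state that a mouse of each genotype was generally handled as a pair up to the sort. The labels do not say which mice made a pair, so the fits leave this out. Replicate numbers were assigned here in sample order within each genotype, and equal numbers are not meant to mark pairs.

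TRP channels are tetramers of subunits with 6 membrane-spanning segments that let cations, often calcium, cross a membrane. Most TRPM, TRPC and TRPV channels open in the plasma membrane in response to internal ligands, lipids, heat or stretch, whereas mucolipins release calcium and other cations from endosomes and lysosomes. In macrophages and microglia such channels have been studied for phagocytosis, oxidant sensing, volume control and lysosome traffic.

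Windows of 250 bases upstream of the RefSeq transcript starts (build GRCm38.p6) were available for 9 of the 10 genes, all but Trpm4. Those of Trpm6 and Trpc4 are shown because these genes had the lowest log2 fold changes of the 10, and that of Mcoln1 because it holds the lysosomal gene motif CACGTG. Capitals mark CACGTG and CATGTG, the 2 hexamers that MiT/TFE transcription factors are known to bind. The windows lie at chr19:18749480-18749729 (Trpm6), chr3:54155807-54156056 (Trpc4) and chr8:3500269-3500486 (Mcoln1), all on the plus strand and written 5′ to 3′. The last 22 bases of the Trpc4 window lie inside the annotated gene. The Mcoln1 window is shown up to 30 bases inside the annotated gene, and these bases hold its second CACGTG.
Trpm6: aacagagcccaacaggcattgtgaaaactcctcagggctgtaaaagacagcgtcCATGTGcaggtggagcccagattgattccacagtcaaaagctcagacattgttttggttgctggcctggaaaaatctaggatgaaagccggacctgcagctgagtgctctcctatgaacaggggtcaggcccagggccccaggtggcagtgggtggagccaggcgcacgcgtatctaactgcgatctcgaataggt
Trpc4: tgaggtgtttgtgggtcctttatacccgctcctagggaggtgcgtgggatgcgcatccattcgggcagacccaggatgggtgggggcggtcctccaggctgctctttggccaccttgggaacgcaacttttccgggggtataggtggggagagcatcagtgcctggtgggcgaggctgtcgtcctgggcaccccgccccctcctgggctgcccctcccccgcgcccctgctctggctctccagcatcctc
Mcoln1: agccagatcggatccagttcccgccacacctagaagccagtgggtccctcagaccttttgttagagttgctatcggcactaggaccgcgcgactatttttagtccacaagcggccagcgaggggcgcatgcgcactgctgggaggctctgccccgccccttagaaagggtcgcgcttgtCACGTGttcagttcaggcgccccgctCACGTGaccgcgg
CACGTG, searched on both strands, occurred 2 times in the Mcoln1 window, 1 time in that of Trpm7 and 1 time in that of Mcoln2, and 6.02% of all 32851 RefSeq windows of this length held it. CATGTG occurred in the windows of Trpm6 and Trpm2 (12.3% of all windows). The AP-1 motif TGANTCA was found in no window of the 9 genes (6.75% of all windows). GAGGAA, a core bound by PU.1, was found in windows of Mcoln3 and Trpv2 (23.3% of all windows). The windows of Mcoln2, Mcoln3 and Trpm2 lie wholly inside the annotated genes. The motifs describe these windows only.

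The mice were sequenced to between 26120961 and 120569609 counts on genes. Trem2 had an nRPKM, a reads-per-kilobase value adjusted by a size factor, of 1044 ± 141 (SD, n = 7) in the PS2APP;Trem2wt group and of 0.887 ± 0.734 (SD, n = 6) in the knockouts. The 8 microglia markers summed to 12337 to 14849 nRPKM in PS2APP;Trem2wt mice and to 12280 to 14092 in PS2APP;Trem2ko mice. Cx3cr1 was the only marker of any cell type list with an adjusted p of 0.05 or less between genotypes (edgeR). It was lower in the knockouts, with mean nRPKM of 1088 against 1526 (log2 fold change -0.49, SE 0.09, edgeR adjusted p = 0.0067). Summed levels were 11.03 to 32.7 and 18.8 to 47.9 for 7 border macrophage markers and 6.37 to 124.7 and 1.55 to 24.5 for 5 markers of the gated-out monocytes and neutrophils, of which Ly6g was at 0 in some mice of each genotype. They were 3.43 to 10.7 and 3.63 to 10.5 for 5 neuron markers, 8.63 to 21.1 and 9.05 to 14.9 for 4 astrocyte markers, 17.7 to 31.4 and 16.1 to 27.1 for 4 oligodendrocyte markers, and 1.63 to 14.9 and 1.60 to 8.49 for 5 endothelial markers. No pair of same-genotype mice agreed within sampling noise.

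In PS2APP;Trem2wt microglia the channels spanned about 2 orders of magnitude in level per length. Trpv2, a channel tied to macrophage phagocytosis, and Mcoln1, the main lysosomal calcium release channel, led with mean nRPKM of 37.1 and 37.0, and their order changed from mouse to mouse, Trpv2 being higher in 4 of 7. Both lay at percentile 94.1 among the genes tested. Trpm7 followed at 11.2 and Trpm2 at 10.4, with overlapping ranges and Trpm7 higher in 6 of 7 mice. Trpv4 (5.32) was above Trpm4 (3.59) in 7 of 7 mice although their ranges overlapped. Mcoln3 (1.54), Trpc4 (0.566), Trpm6 (0.421) and Mcoln2 (0.356) formed the low end, each overlapping its neighbour in the order, and Trpm6 and Mcoln2 lay at percentiles 23.2 and 20.9. In PS2APP;Trem2ko microglia Mcoln1 came before Trpv2 in 6 of 6 mice, Trpm2 before Trpm7 in 4 of 6, and Trpc4 and Trpm6 were the last in order.

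**Figure D1:**
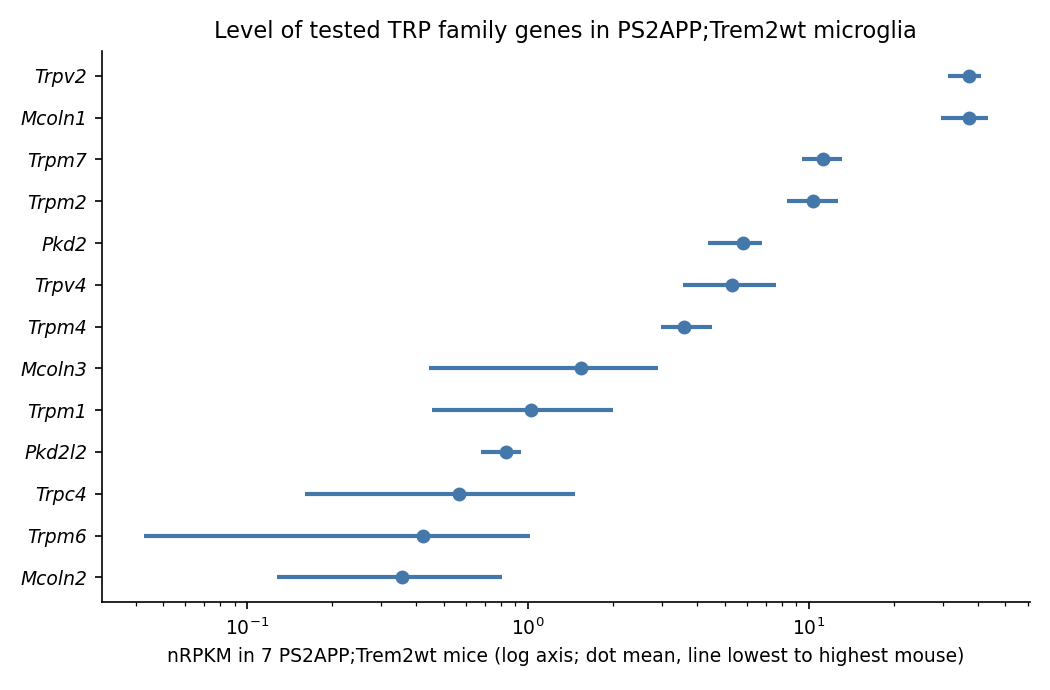
Mean nRPKM (dots, log axis) and the range from the lowest to the highest of 7 PS2APP;Trem2wt mice (lines) for the TRP family genes that passed the count filter, other family members included. Trpm3 is left off because it was at 0 in some mouse. Trpv2 and Mcoln1 lead at 37.1 and 37.0 nRPKM, and Trpc4, Trpm6 and Mcoln2 have the lowest means, 0.566, 0.421 and 0.356, and wide ranges.

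The low genes were also the variable ones. Across the 7 PS2APP;Trem2wt mice the highest value was 23.7 times the lowest for Trpm6, 9.13 times for Trpc4, 6.52 times for Mcoln3 and 6.34 times for Mcoln2. For the other 6 genes this ratio lay between 1.32 (Trpv2) and 2.15 (Trpv4).

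Of the 10 channel genes, 2 passed both cutoffs as lower in PS2APP;Trem2ko microglia, an adjusted p of at most 0.05 and a change of at least 2-fold (edgeR's quasi-likelihood test over all genes), Trpm6 and Trpc4, where 0.691% of all genes tested were called lower. None was called higher, where 0.0527% of all genes were. Without the fold cutoff edgeR called the same 2 genes. They were also the only 2 of the 10 whose mice did not overlap between genotypes, which held for 1.18% of all genes tested with lower and for 0.439% with higher values in the knockouts. Since both genes were picked from this comparison, nothing is read from these counts. The median log2 fold change of the 10 was -0.08, beside 0.00 for all genes tested. The remaining 8 genes overlapped between genotypes, with Mcoln2 and Mcoln3 at lower, and Trpm2, Trpv4 and Mcoln1 at higher mean levels in the knockouts. Depth differed too, and every knockout had 41567025 counts or more. Only PS2APP;Trem2wt replicates 3 and 7 exceeded that (79883820 and 114857155), and they had the highest Trpm2, Trpv4 and Mcoln1 values of their group. The deepest knockouts, replicates 1 and 5 (120569609 and 116906312 counts), were highest for none of these genes. Whether depth bears on these levels was not tested. The cells are sorted in bulk, so fewer cells with a transcript and less of it per cell cannot be told apart.

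**Figure D2:**
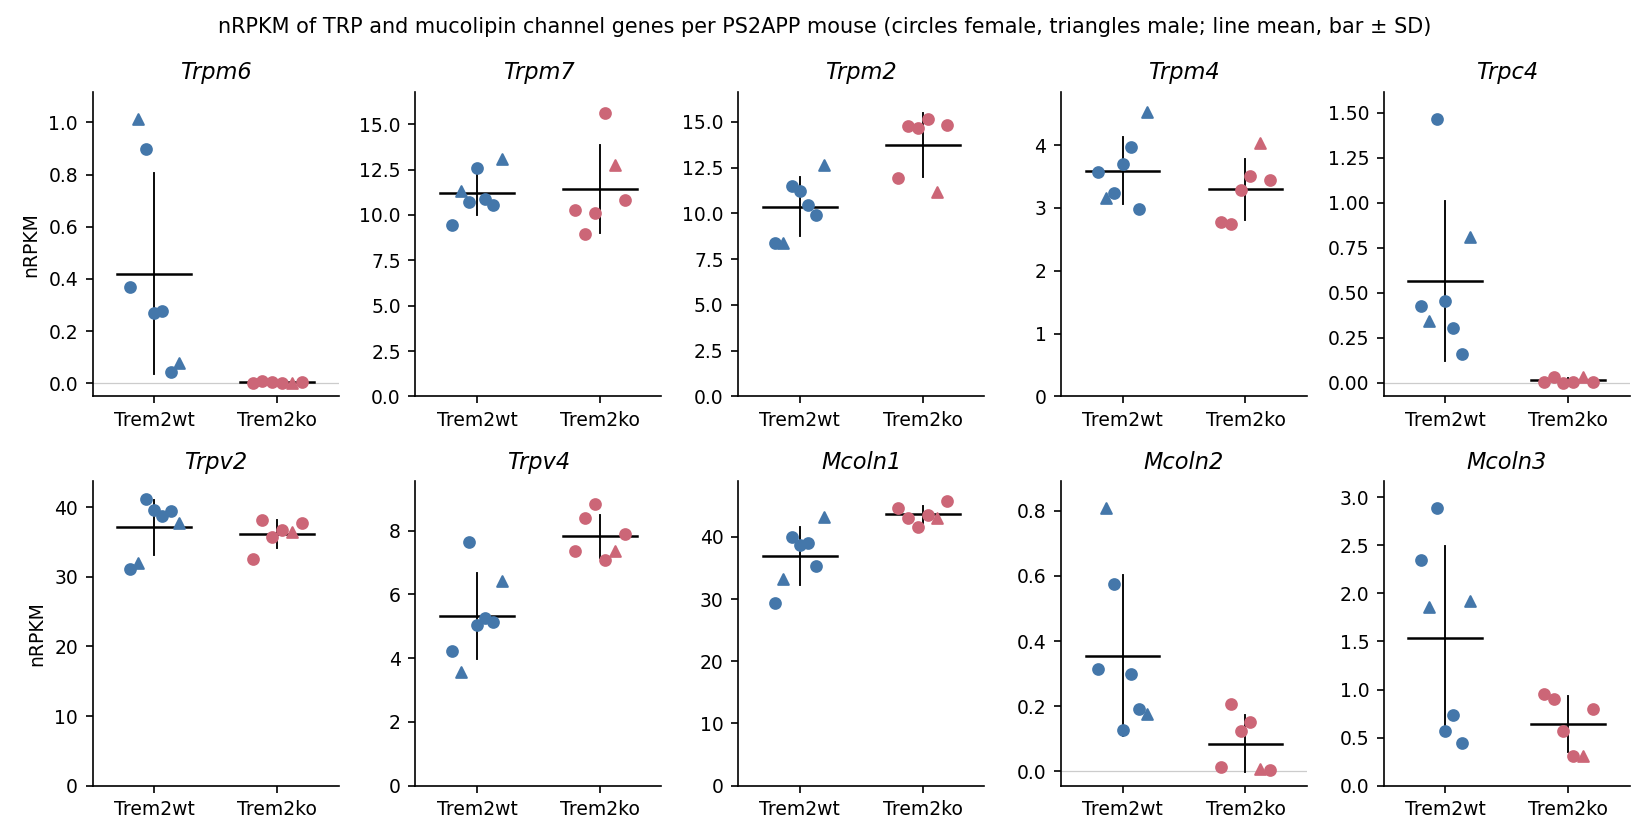
nRPKM of each channel gene in every mouse, by genotype (circles female, triangles male; line mean, bar SD; vertical axes differ). All 6 PS2APP;Trem2ko mice sit near 0 for Trpm6 and Trpc4, below every PS2APP;Trem2wt mouse, and the groups overlap for the other 8 genes.

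Trpm6 and Trpm7 encode channel kinases, which join a magnesium- and calcium-conducting pore to a protein kinase domain. TRPM6 is known for magnesium uptake in gut and kidney, and TRPM7 is present in nearly all cells. Trpm6 (ENSMUSG00000024727, chr19:18749983-18892511 of GRCm38, plus strand) had a lowest nRPKM of 0.0428, a median of 0.276 and a highest of 1.01 in PS2APP;Trem2wt mice. In PS2APP;Trem2ko mice the lowest was 0, the median 0.00327 and the highest 0.00682. These values rest on 126, 254, 602, 67, 101, 12 and 83 counts in PS2APP;Trem2wt replicates 1 to 7, and on 2, 4, 2, 0, 0 and 2 counts in PS2APP;Trem2ko replicates 1 to 6. Every knockout was thus below every PS2APP;Trem2wt mouse, and 5 of the 6 knockouts were at or under the limit of detection of 3 counts. Pooled over mice, 1245 counts stood against 10, a 152-fold higher share of all counts (95% counting interval 82.4 to 318, which covers counting error only). The fitted log2 fold change was -7.21 (SE 0.92), a value that depends on how such low counts are treated: it was -1.98 on log2(nRPKM + 0.1) and -0.46 on log2(nRPKM + 1). The call was absent with voom+limma, the tool of the study's methods, and with log2(nRPKM + 1).

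The highest Trpm6 values came from PS2APP;Trem2wt replicates 2 and 3 (1.01 and 0.896), a male and a female, and the lowest from replicates 6 and 7 (0.0428 and 0.0788). Replicate 2 also had the highest sums of monocyte and neutrophil markers (124.7 nRPKM) and of endothelial markers (14.9 nRPKM). Replicate 3 had those of astrocyte and oligodendrocyte markers (21.1 and 31.4 nRPKM). Replicate 6, with the lowest Trpm6 value, had the highest sums of border macrophage and neuron markers (32.7 and 10.7 nRPKM). Whether such cells carry Trpm6 was not tested. Without replicate 2 the Trpm6 log2 fold change was -6.83, and without replicate 3 it was -6.89, and the call was kept in both fits.

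Trpm7 (chr2:126791565-126876230, minus strand) had a lowest, median and highest nRPKM of 9.47, 10.9 and 13.1 in PS2APP;Trem2wt and of 8.97, 10.5 and 15.6 in PS2APP;Trem2ko mice. Its log2 fold change of 0.02 (SE 0.12) was within the spread between mice, and its sign turned in 3 of 21 alternatives. Of the summed nRPKM of the pair, Trpm6 made up 0.405% to 8.21% (median 2.48%) in PS2APP;Trem2wt and at most 0.0760% in PS2APP;Trem2ko mice. The transcripts of Trpm6 and Trpm7 share no word of 50 bases, the length of a read, with another gene.

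Trpm2 encodes a calcium-permeable channel opened by ADP-ribose and known as a sensor of oxidative stress in phagocytes. Trpm2 (chr10:77907722-77970563, minus strand) had a lowest, median and highest nRPKM of 8.36, 10.4 and 12.7 in PS2APP;Trem2wt mice and of 11.2, 14.7 and 15.1 in the knockouts. In 4 of the 6 knockouts it was above every PS2APP;Trem2wt mouse, and the other 2, a female at 11.9 and the male at 11.2, were within the range of the former group. The log2 fold change was 0.40 (SE 0.11), positive in 21 of 21 alternatives and between 0.36 and 0.47. The difference was below 2-fold.

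Trpm4 encodes a calcium-activated channel that conducts sodium and potassium but hardly any calcium, which sets it apart from Trpm2. Trpm4 (chr7:45302632-45333780, minus strand) had a lowest, median and highest nRPKM of 2.98, 3.57 and 4.52 in PS2APP;Trem2wt and of 2.74, 3.36 and 4.04 in PS2APP;Trem2ko mice, a log2 fold change of -0.13 (SE 0.12). The groups overlapped, with 2 knockouts below every PS2APP;Trem2wt mouse.

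Trpc4 encodes a channel opened downstream of phospholipase C-coupled receptors and best known from endothelium, smooth muscle and neurons. Trpc4 (ENSMUSG00000027748, chr3:54156035-54318471, plus strand) had a lowest nRPKM of 0.160, a median of 0.427 and a highest of 1.46 in PS2APP;Trem2wt mice. In PS2APP;Trem2ko mice the lowest was 0, the median 0.00428 and the highest 0.0329. Counts were 78, 46, 525, 60, 59, 24 and 455 in the former and 1, 10, 0, 1, 19 and 1 in the latter. The genotypes did not overlap, and 4 of the 6 knockouts were at or under 3 counts. The pooled counts were 1247 and 32, a 47.6-fold difference in share (95% counting interval 33.5 to 69.9, which covers counting error only). The log2 fold change was -5.33 (SE 0.74), with -2.35 on log2(nRPKM + 0.1) and -0.59 on log2(nRPKM + 1), and only the last scale lost the call among the 22 alternatives.

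PS2APP;Trem2wt replicate 3, with the highest sums of astrocyte and oligodendrocyte markers, also had the highest Trpc4 value. Without replicate 3 the log2 fold change was -4.90. PS2APP;Trem2wt replicates 2 and 6, with the highest sums of endothelial and of neuron markers (14.9 and 10.7 nRPKM), had Trpc4 values of 0.344 and 0.160. Among knockouts, replicate 3 had the highest sums of astrocyte and oligodendrocyte markers (14.9 and 27.1 nRPKM) and 0 Trpc4 counts. Whether such cells carry Trpc4 was not tested. In knockouts the highest Trpc4 values, 0.0319 and 0.0329, came from replicates 2 and 5, which had 10 and 19 of the group's 32 counts. Trpm6 had 4 and 0 counts in the same knockouts.

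Trpv2 and Trpv4 are vanilloid-family channels, of which TRPV4 is known to respond to hypotonic swelling, warmth and arachidonic acid metabolites. Trpv2 (chr11:62574486-62600515, plus strand) had a lowest, median and highest nRPKM of 31.2, 38.8 and 41.1 in PS2APP;Trem2wt and of 32.5, 36.5 and 38.2 in PS2APP;Trem2ko mice. Its log2 fold change was -0.04 (SE 0.08). Of its 50-base words, 2.12% also occur in another gene, the largest share among the 10.

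Trpv4 (chr5:114622152-114658421, minus strand) had a lowest, median and highest nRPKM of 3.55, 5.13 and 7.64 in PS2APP;Trem2wt and of 7.08, 7.63 and 8.83 in PS2APP;Trem2ko mice. In 6 of 7 PS2APP;Trem2wt mice it was below every knockout, and the exception was replicate 3, at 7.64. The log2 fold change of 0.55 (SE 0.14) was the largest positive value of the 10 genes and lay between 0.47 and 0.66 over the alternatives. It was below 2-fold.

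The mucolipins are encoded by Mcoln1 on chromosome 8 and by the neighbouring genes Mcoln3 and Mcoln2 on chromosome 3. All of them are opened by phosphatidylinositol 3,5-bisphosphate, a lipid of late endosomes and lysosomes, and loss of MCOLN1 in people causes the lysosomal storage disease mucolipidosis type IV. Mcoln1 (chr8:3500457-3515232, plus strand) had a lowest, median and highest nRPKM of 29.4, 38.8 and 43.2 in PS2APP;Trem2wt and of 41.7, 43.3 and 45.8 in PS2APP;Trem2ko mice. In 6 of 7 PS2APP;Trem2wt mice it was below every knockout. The knockouts lay close together, with a mean of 43.6 ± 1.43 (SD, n = 6) against 37.0 ± 4.66 (SD, n = 7), and the log2 fold change was 0.23 (SE 0.08).

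Mcoln2 (ENSMUSG00000011008, chr3:146149833-146195513, plus strand) encodes the mucolipin known for activation-dependent expression in macrophages. It had a lowest, median and highest nRPKM of 0.127, 0.300 and 0.808 in PS2APP;Trem2wt mice and of 0.00587, 0.0689 and 0.208 in PS2APP;Trem2ko mice. The knockouts fell into 3 mice between 0.125 and 0.208 and 3 mice between 0.00587 and 0.0126, the latter with 6, 3 and 1 counts. In 4 of the 6 knockouts Mcoln2 was below every PS2APP;Trem2wt mouse. The log2 fold change was -2.08 (SE 0.75) with edgeR, which did not call it, and -3.26 with voom+limma, which did. It was -1.28 on log2(nRPKM + 0.1) and -0.31 on log2(nRPKM + 1), without a call. Pooled counts of 441 and 109 gave a 4.94-fold difference in share (95% counting interval 3.996 to 6.148). That interval covers counting error only and leaves out the spread between mice, whose groups overlapped.

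Mcoln3 (ENSMUSG00000036853, chr3:146117450-146141806, plus strand) encodes the mucolipin altered in varitint-waddler mice, which have hearing and coat colour defects. Its lowest, median and highest nRPKM were 0.442, 1.86 and 2.89 in PS2APP;Trem2wt and 0.306, 0.685 and 0.956 in PS2APP;Trem2ko mice. The PS2APP;Trem2wt mice split into 4 between 1.86 and 2.89 and 3 between 0.442 and 0.738, and 4 PS2APP;Trem2wt mice were above every knockout. The log2 fold change was -1.27 (SE 0.44), and it was called lower with DESeq2 but not with edgeR or voom+limma. Among knockouts, replicate 1 had the highest Mcoln3 value (0.956) and was among the 3 lowest for Mcoln2 (0.0126).

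Mcoln1 made up most of the mucolipin transcript. Its share of the summed nRPKM of the 3 genes was 91.7% to 98.2% (median 95.4%) in PS2APP;Trem2wt and 97.5% to 99.3% (median 98.3%) in PS2APP;Trem2ko mice. Mcoln3 took 1.23% to 7.33% (median 4.23%) and 0.695% to 2.10% (median 1.53%), and the ranges of both shares overlapped between genotypes.

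Whether the channels varied together was asked within the 7 PS2APP;Trem2wt mice for 3 pairs, on log2(CPM + 1) with two-sided exact permutation tests whose smallest possible p is 0.000397. Mcoln2 and Mcoln3 had a Pearson r of 0.60 (exact p = 0.132, adjusted over 3 pairs 0.395) and a Spearman rho of 0.71 (exact p = 0.0881, adjusted 0.264), with r = 0.56 without the 2 mice farthest from the median. For Trpm6 and Trpc4 r was 0.37 (exact p = 0.409, adjusted 0.550) and rho 0.32 (exact p = 0.498, adjusted 0.498), and r was 0.36 without 2 mice. For Trpm6 and Trpm7 r was -0.26 (exact p = 0.550, adjusted 0.550) and rho -0.36 (exact p = 0.444, adjusted 0.498). Its r of -0.86 without 2 mice and of 0.05 without replicate 7 shows that the value rests on single mice. No pair held up against the spread of 7 mice.

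Sex took no part in the choice of the genes and was tested with genotype in the model, 3 males against 10 females. None of the 10 genes differed after adjustment, and none at an unadjusted p under 0.05, with edgeR, where 0.0234% and 6.95% of all genes did. DESeq2 and voom+limma called none of them either. The lowest adjusted p from edgeR was that of Trpm4, 0.764, with a male minus female log2 difference of 0.23 (SE 0.13) and 2 of 3 males above the median female of their genotype. Trpm7 had a difference of 0.19 (SE 0.14, adjusted p = 0.810) and was higher in 3 of 3 males. For Trpc4 (0.65, SE 0.71) and Mcoln2 (-0.14, SE 0.94) the spread between mice was too wide for a 2-fold sex difference to be detectable. That of Trpm6 was 0.19 (SE 0.86) and turned to -2.37 without PS2APP;Trem2wt replicate 2, the male with the highest Trpm6 value. For Trpm2, Trpv2, Trpv4 and Mcoln1 the differences lay between -0.11 and 0.04, with standard errors of 0.17 or less, and that of Mcoln3 was -0.04 (SE 0.55).

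**Figure D3:**
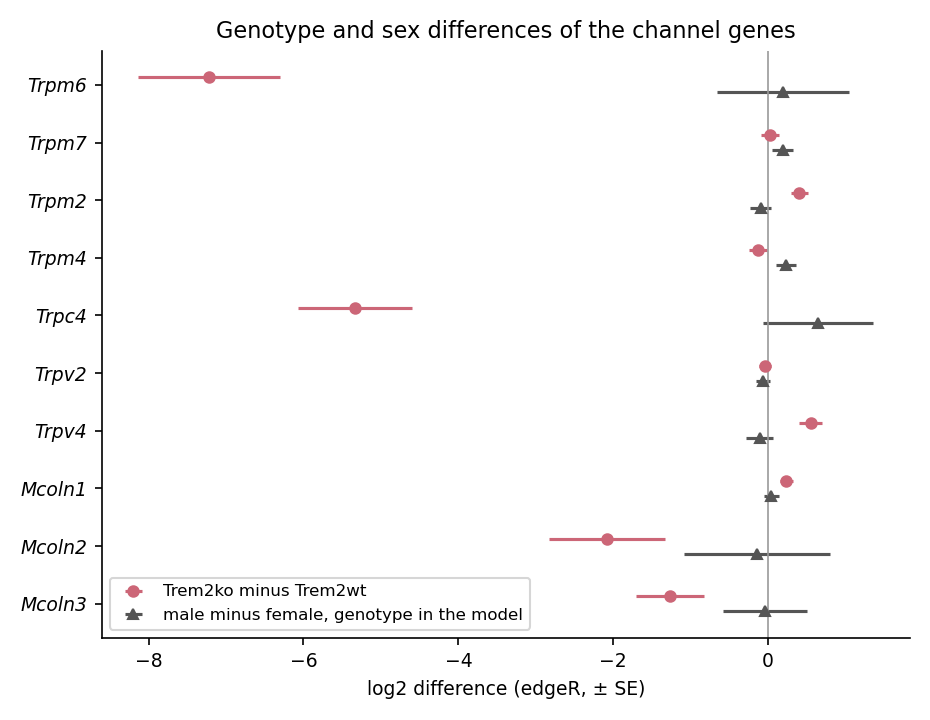
Log2 differences of the 10 channel genes between genotypes (circles, PS2APP;Trem2ko minus PS2APP;Trem2wt) and between sexes with genotype in the model (triangles, male minus female), with standard errors from edgeR. Trpm6 and Trpc4 lie at -7.21 and -5.33 for genotype and at 0.19 and 0.65 for sex.

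The other 18 TRP family genes were mostly undetected. Only 4 passed the filter on low counts, Pkd2, Pkd2l2, Trpm1 and Trpm3, and among the remaining 14 no mouse had more than 44 counts, with Trpc2 and Trpm5 at 0 in all 13. None of the 4 was called with or without the fold cutoff, where 2.04% of all genes passed the cutoff on the adjusted p, and their median log2 fold change was -0.30. Pkd2, which encodes the polycystin channel of cilia and endoplasmic reticulum and had the highest level, had 5.81 ± 0.82 nRPKM (SD, n = 7) with Trem2 and 5.25 ± 0.747 (SD, n = 6) without it (log2 fold change -0.15, SE 0.11, adjusted p = 0.570 from edgeR). Trpm1 was at -0.87 (SE 0.36, adjusted p = 0.254) and was not called.

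Of 14 genes of magnesium transport, the ion for which Trpm6 is known, 1 was called lower and none higher, where 0.691% and 0.0527% of all genes were, and the median log2 fold change was -0.08. Slc41a2, which encodes a magnesium transporter of the plasma membrane (chr10:83230848-83337882, minus strand), had a lowest, median and highest nRPKM of 0.105, 0.432 and 0.603 in PS2APP;Trem2wt and of 0.00594, 0.0546 and 0.113 in PS2APP;Trem2ko mice. It was lower in 5 of 6 knockouts than in any PS2APP;Trem2wt mouse, at 2 to 33 counts a mouse. It fell by 2.69 on the log2 scale (SE 0.55, adjusted p = 0.0180 from edgeR, and between 2.4e-05 and 0.0967 over the alternatives). The call was lost with females only and on log2(nRPKM + 1). This list and the others around the channels were chosen with earlier results of these data known. Their counts and adjusted p-values are therefore a description. Magt1, the most abundant gene of the list, had 24.8 ± 2.20 (SD, n = 7) and 24.2 ± 1.41 nRPKM (SD, n = 6), and its log2 fold change was -0.04 (SE 0.07, edgeR adjusted p = 0.837).

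Of 7 genes that make or remove ADP-ribose, the ligand of Trpm2, none was called at 2-fold, and Parp2 was higher with an adjusted p of at most 0.05, where 0.503% of all genes were. Parp2 encodes a DNA damage-activated poly(ADP-ribose) polymerase (chr14:50807841-50821301, plus strand). PS2APP;Trem2wt mice had 18.7 ± 1.93 nRPKM (SD, n = 7), from 16.7 to 21.4, and PS2APP;Trem2ko mice 25.1 ± 3.58 (SD, n = 6), from 22.5 to 32.1. All 6 knockouts were above all PS2APP;Trem2wt mice, which held for 0.439% of genes tested in this direction. It rose by 0.42 on the log2 scale (SE 0.09, adjusted p = 0.0263 from edgeR), and the adjusted p was between 0.0011 and 0.0551 and at 0.05 or less in 16 of 21 alternatives. Nudt9, which encodes a mitochondrial ADP-ribose hydrolase and was the most abundant, was at -0.01 on the log2 scale (SE 0.06, edgeR adjusted p = 0.967), and the list's median was 0.03.

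None of 6 genes of the mucolipin-activating lipid and of other endolysosomal calcium channels was called with or without the fold cutoff, and their log2 fold changes lay between -0.12 and 0.08 with a median of 0.01. Pikfyve, Fig4 and Vac14, which encode the complex that makes the lipid, were among them. Pdcd6, which encodes the calcium sensor ALG-2 that binds mucolipin-1, was the most abundant, at 24.7 ± 2.07 (SD, n = 7) and 23.9 ± 2.41 nRPKM (SD, n = 6). Of 10 genes of store-operated and stored calcium none was called either, with log2 fold changes between -0.15 and 0.20 and a median of -0.02. Orai1, the pore of the store-operated channel and the most abundant of these, had 67.6 ± 4.70 (SD, n = 7) and 65.4 ± 5.73 nRPKM (SD, n = 6). At an unadjusted p under 0.05 the sex comparison found Pikfyve of the lipid list (log2 difference 0.44, SE 0.14, edgeR adjusted p = 0.713) and no gene of the other lists.

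**Figure D4:**
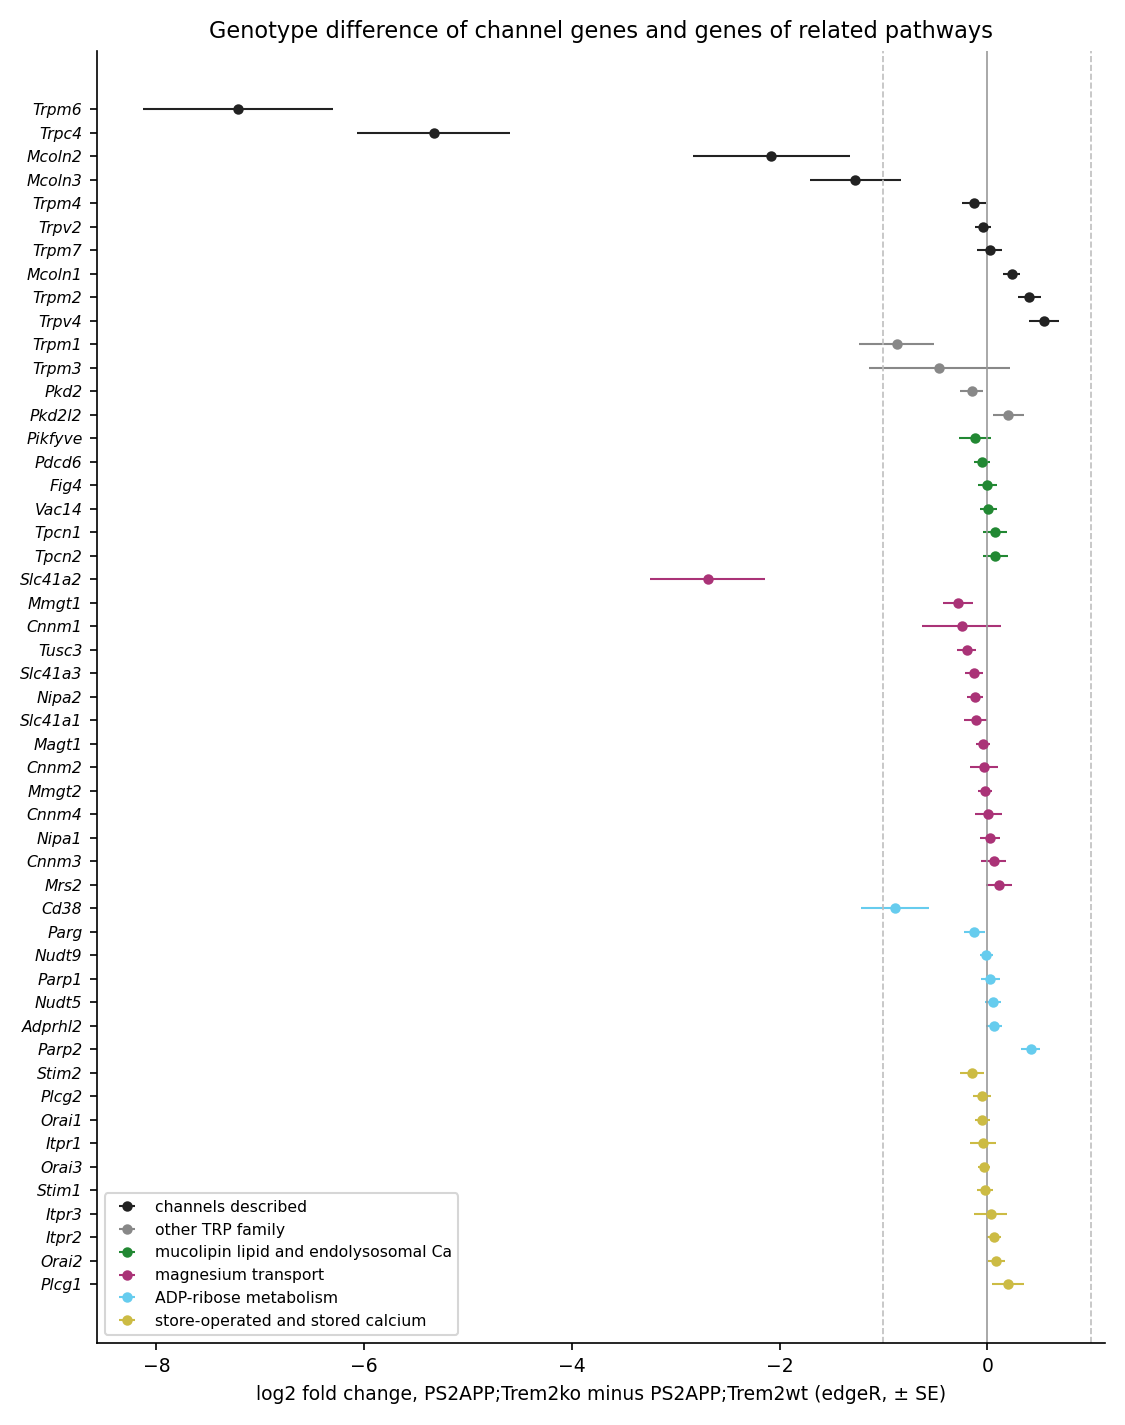
Log2 fold changes (PS2APP;Trem2ko minus PS2APP;Trem2wt, edgeR) with standard errors for the 10 channel genes and the tested genes of 5 lists around them, and dashed lines at a 2-fold change. Trpm6, Trpc4, Slc41a2, Mcoln2 and Mcoln3 lie left of the 2-fold line, and all other genes lie between -0.89 (Cd38) and 0.55 (Trpv4).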

How the data were processed

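RNA-Seq of sorted microglia was analysed for 7 PS2APP;Trem2wt and 6 PS2APP;Trem2ko mice. Libraries were made with an ultra-low-input SMART-seq kit and aligned by the authors with GSNAP to GRCm38. The authors deposited counts of reads per gene, without normalization, and nRPKM, an RPKM value scaled by a size factor. Whether counting used strand is not given in the sources used here, which touches genes with an overlapping opposite gene (a small RNA at Trpm6, a pseudogene at Trpm7, at Trpm4 and at Slc41a2).

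Counts were tested with edgeR 4.0.16 (R 4.3.3): filterByExpr by genotype, TMM, glmQLFit and glmQLFTest, Benjamini-Hochberg adjustment over 17086 genes, cutoffs 0.05 and 2-fold. Mice are the replicates. Positions are from GENCODE M21, upstream windows from RefSeq. Alternatives were voom+limma (limma 3.58.1), which the study used, DESeq2 1.42.0, RLE scaling, no filter, females only, sex as covariate, no fold cutoff, limma on log2(nRPKM + 0.1) or log2(nRPKM + 1) and leaving out each mouse. The fits were first tested on simulated data. The limit of detection was 3 counts, 0.0249 to 0.115 CPM per mouse, and covers counting error only.

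The 10 genes and all lists were chosen with earlier results of these data known. All 10 genes are described. In each list the genes at an adjusted p of 0.05 or less and the most abundant are named, and Trpm1, the 4 tested and the 2 undetected TRP genes, and Pikfyve, Fig4, Vac14 and Cd38 were added after their values were seen.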

Additional observations from a re-analysis of the deposited data

Results flagged for a closer look

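Of 34 sets of nRPKM values checked, each 1 gene in 1 genotype, 1 held a mouse that stood apart by Dixon's criterion, where chance alone gives about 1 in 20. Parp2 in PS2APP;Trem2ko microglia was 32.1 nRPKM in replicate 1, a female, and the gap to the next mouse was 0.714 of the group's range. Without that mouse Parp2 had a log2 fold change of 0.34 and an adjusted p of 0.0496 (edgeR), beside 0.0011 to 0.0551 over all alternatives.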

How the results depend on the processing

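Over all genes, 118 were called lower and 9 higher. Without the fold cutoff the counts were 262 and 86, on log2(nRPKM + 1) 54 and 2, and 26 genes were called higher with DESeq2 and 15 with females only. Leaving out 1 mouse gave between 93 and 118 lower and between 4 (without PS2APP;Trem2wt replicate 5) and 14 (without PS2APP;Trem2wt replicate 1) higher genes. Of the 10 channel genes, 2 were called lower, 0 on log2(nRPKM + 1) and 2 in all 13 fits that left out a mouse, each time Trpm6 and Trpc4. DESeq2 called Mcoln3 in addition, and voom+limma called Trpc4 and Mcoln2. The count for magnesium transport, 1, was 0 with females only and 0 on log2(nRPKM + 1), and that for ADP-ribose metabolism, 0, was 1 without the fold cutoff. The other 3 lists had 0 calls under each of the 22 alternatives. The sex comparison called 4 of all genes, 36 with DESeq2, 17 without the filter, 7 in PS2APP;Trem2wt mice only and between 2 and 6 with 1 mouse left out, with 2 each without PS2APP;Trem2wt replicate 2, PS2APP;Trem2wt replicate 7 or PS2APP;Trem2ko replicate 5, and it called 0 of the 10 channel genes throughout. The correlation of Trpm6 and Trpm7 lay between -0.54 and 0.052 with 1 mouse left out, turning sign without PS2APP;Trem2wt replicate 7, and the log2 fold change of Nudt9 lay between -0.029 and 0.022, turning positive without PS2APP;Trem2wt replicate 1, PS2APP;Trem2wt replicate 3 or PS2APP;Trem2ko replicate 5. Values of single genes that were not the answer to a comparison stayed on their side of the threshold, or moved within the spread between mice, in 520 cases, and in 8 they moved further, in 6 the adjusted p passed 0.05 and in 3, those of Nudt9, the sign turned. The log2 fold change of Trpm7, counted among the 520, also turned negative in 3 of 21 alternatives, by less than the spread between mice. The cause of these changes was not tested. In the knockouts Trpm6 and Trpc4 were at or under the limit of 3 counts in 5 and 4 of 6 mice, so their levels there are uncertain. The median depth was 55371726 counts in PS2APP;Trem2ko and 35201380 in PS2APP;Trem2wt mice. The limit was at most 0.0722 CPM in knockouts. The lowest PS2APP;Trem2wt values were 0.392 CPM for Trpm6 and 0.785 CPM for Trpc4. No paired analysis was possible because the labels give no replicate numbers and do not say which mice were handled together as a pair, so a difference between such pairs stays in the spread of every fit.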

Other observations

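The tested genes within 500 kb of the 4 channel genes with the lowest log2 fold changes were examined after the data had been seen. Near Trpm6, 6 genes were tested and 1 had an adjusted p of at most 0.05 from edgeR's quasi-likelihood test, where 2.04% of all genes did. Nmrk1, which encodes a nicotinamide riboside kinase of NAD synthesis, was higher in PS2APP;Trem2ko microglia, with mean nRPKM of 2.75 against 1.57 and 0.80 on the log2 scale (SE 0.18, adjusted p = 0.0292), and 5 of 6 knockouts were above every PS2APP;Trem2wt mouse. Rorb and D030056L22Rik, the nearest tested genes on either side of Trpm6, had log2 fold changes of 0.03 (SE 0.28) and -0.17 (SE 0.14).

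Near Trpc4, 1 of 10 tested genes passed the same cutoff. Postn, which encodes the matrix protein periostin and is the next tested gene after Trpc4, was lower, with mean nRPKM of 1.82 against 4.40 and -1.27 on the log2 scale (SE 0.20, edgeR adjusted p = 0.00229), and all 6 knockouts were below every PS2APP;Trem2wt mouse. Around Mcoln2 and around Mcoln3, 11 genes each were tested, the other mucolipin included, and none passed that cutoff.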
